A study of Mus musculus with 9 samples.

Results

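The NF-kB subunits and their feedback genes comprised 10 genes, chosen by name with earlier results of these data known. They were the subunit genes Rela, Relb, Rel, Nfkb1 and Nfkb2, and the inhibitor and feedback genes Nfkbia, Nfkbie, Nfkbiz, Bcl3 and Tnfaip3. All 10 were among the 24062 gene symbols of the count table, and all 10 passed the filter on low counts. They were measured by RNA-seq in cultures labelled mouse embryonic fibroblasts (cultured connective tissue cells, from strain C57BL/6) on day 4 after lentiviral infection. The control group received an empty vector (EV), the p21 group a lentivirus for p21 overexpression and the p16 group one for p16 overexpression, with 3 libraries in each. Both delivered proteins are inhibitors of cyclin-dependent kinases. Non-senescent is the labelled state of every library. The labels do not name the promoter of the vector, and they do not say whether the 3 libraries of a group came from separate embryos or cultures, so the p-values measure the spread between these samples only. The controls carry the protocol text of the p21 experiment and the p16 libraries a text of their own. The labels do not say whether the p16 libraries were prepared together with the others, so a difference in preparation cannot be told apart from p16 in the comparisons that use them.

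NF-kB is a family of transcription factors that act as pairs of subunits. In resting cells most pairs are held in the cytoplasm by IkB proteins, and stimuli such as TNF, interleukin 1 or Toll-like receptor ligands activate the IkB kinase (IKK) complex, which marks IkB for degradation and frees the pair to enter the nucleus. Several of the genes that NF-kB then switches on encode its own brakes and subunits, which makes their transcripts a common readout of the pathway. In fibroblasts the pathway is known for driving cytokines, chemokines and adhesion molecules.

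The promoters of 4 members that passed a test described below are shown first, because feedback genes of NF-kB are known to carry binding sites for it near their starts. RefSeq start windows (GRCm38.p6, 250 bases before to 50 bases after an annotated gene start) were found for 7 of the 10 genes, and Nfkb1, Relb and Nfkbiz had none in the table. Both strands were searched for 2 forms of the kappaB site: the first motif is GGG, any 2 bases and then TTTCC, and the second is GGG, any 2 bases and then TTCCC. Matches to both can overlap. At least 1 of these was present in 3.24% of 32851 windows of the same length, and in at least 1 window of 3.73% of 27025 genes. Of the 7 members with a window, 5 held a match: Tnfaip3, Bcl3, Nfkbia, Nfkb2 and Rel. A match is a run of letters and does not show that a factor is bound. In the sequences below, written 5′ to 3′ on the gene's strand, capitals mark the matches.
Tnfaip3, chr10:19015361-19015660, minus strand: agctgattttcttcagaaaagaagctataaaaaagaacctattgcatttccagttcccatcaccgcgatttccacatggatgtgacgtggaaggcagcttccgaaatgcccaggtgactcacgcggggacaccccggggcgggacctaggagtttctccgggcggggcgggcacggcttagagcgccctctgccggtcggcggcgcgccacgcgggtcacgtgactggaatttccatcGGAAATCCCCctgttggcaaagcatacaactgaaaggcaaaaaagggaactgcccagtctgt
Bcl3, chr7:19822706-19823005, minus strand: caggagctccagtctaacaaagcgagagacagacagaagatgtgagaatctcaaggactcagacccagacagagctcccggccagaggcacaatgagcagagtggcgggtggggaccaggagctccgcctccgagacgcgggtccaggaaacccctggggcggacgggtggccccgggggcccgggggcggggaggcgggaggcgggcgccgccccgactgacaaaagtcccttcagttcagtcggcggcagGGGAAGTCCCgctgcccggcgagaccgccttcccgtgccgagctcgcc
Nfkb2, chr19:46304487-46304786, plus strand: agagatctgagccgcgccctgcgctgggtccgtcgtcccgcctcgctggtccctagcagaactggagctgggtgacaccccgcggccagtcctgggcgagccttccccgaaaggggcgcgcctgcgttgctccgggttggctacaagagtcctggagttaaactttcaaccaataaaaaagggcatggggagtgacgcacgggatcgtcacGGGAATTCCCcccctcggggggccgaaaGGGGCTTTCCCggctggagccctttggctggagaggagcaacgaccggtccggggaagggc
Nfkbia, chr12:55492598-55492897, minus strand: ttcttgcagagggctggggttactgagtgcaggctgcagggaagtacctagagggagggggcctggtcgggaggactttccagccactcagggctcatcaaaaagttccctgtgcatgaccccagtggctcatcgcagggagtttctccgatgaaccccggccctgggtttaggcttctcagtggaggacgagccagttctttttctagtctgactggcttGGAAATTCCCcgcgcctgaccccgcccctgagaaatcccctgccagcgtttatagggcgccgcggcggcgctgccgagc
In Tnfaip3 the match to the first motif began at position -12 from the gene start, on the other strand, and in Nfkbia at position -29, also on the other strand. Nfkb2 held 2 stretches, the upper one a palindrome that matched the second motif on both strands from position -39, and the lower one an overlap of both motifs. Bcl3 held its match to the second motif from position 3 of the transcript, on the other strand. Tnfaip3, which was higher with p21, and Nfkbia, which was lower, matched the first motif, Bcl3 the second and Nfkb2 both.

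**Figure D1:**
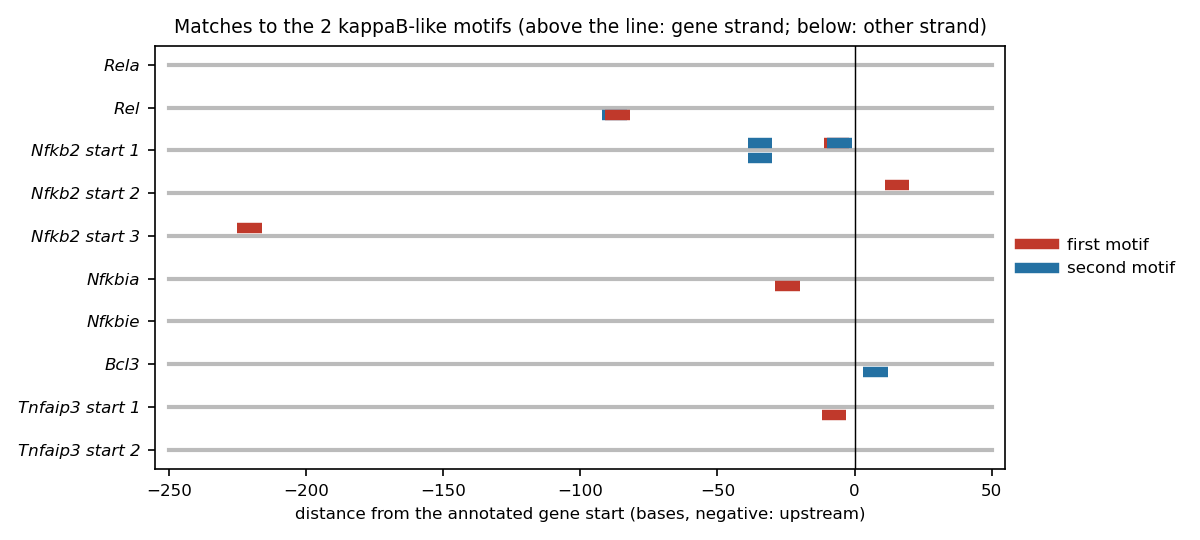
Position of matches to the first (red) and second (blue) motif in the 10 start windows of 7 genes, in bases from the annotated gene start, with matches on the gene's strand above the line and on the other strand below it. Most matches lay within 100 bases upstream of the start, and Rela and Nfkbie held none.

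Library totals ran from 44455730 to 63152239 counts, and 14223 genes were tested. Cdkn1a, which encodes p21, stood at 1605 CPM (counts scaled to library size, with trimmed-mean, TMM, factors) with p21 against 360.2 in the controls, and Cdkn2a, which encodes p16, at 1731 CPM with p16 against 37.9. Cdkn2a was also higher with p21, at 46.5 CPM (log2 fold change 0.29, edgeR adjusted p = 0.0111). The replicate 3 library of every group carried Xist at 181.1 to 250.9 CPM, against at most 6.96 CPM in the other 6. After removal of group means, libraries that share a replicate number were more alike across genes (r 0.126 to 0.361) than other pairs (-0.246 to 0.106). The main tests below leave this number out. With it as a block, 3044 genes passed in place of 1616 with p16, and 3214 in place of 1858 in p21 against p16. Of the 10 fibroblast markers, Col1a1 stood at 12411 to 15891 CPM in all libraries and Vim at 4898 to 5419 CPM, whereas Dcn (2.26 to 4.12 CPM) and Lum (0.412 to 1.002 CPM) were low. With p21, 4 of the 10 were higher (Col1a1 0.17, Thy1 0.16, Vim 0.11 and Fbln2 0.33 on the log2 scale) and 2 lower (Col3a1 -0.32 and Pdgfra -0.99). Over all genes tested, 19.8% were higher and 20.1% lower. Of 17 macrophage and leukocyte markers 16 were in the table, and the lymphocyte markers Cd3e and Ms4a1 were at 0 in every library. The summed level of the 16 was 25.1 to 38.1 CPM in the controls, with p21 it was 40.1 to 54.3 CPM, and p16 libraries ranged over 31.3 to 53.7 CPM, with Lyz2 alone at 12.0 to 19.9, 20.4 to 30.8 and 16.01 to 29.3 CPM. In edgeR's quasi-likelihood test 5 of the 12 tested leukocyte markers were higher with p21, where 19.8% of all genes were (8 with the replicate number as a block, where 24% were). With p16 edgeR called 0, with 3 at an unadjusted p under 0.05, 1 called by DESeq2, 0 by limma-voom and 4 with the block. The summed level of 5 endothelial markers was 5.22 to 6.00 CPM in the controls, 7.61 to 9.69 with p21 and 5.01 to 7.54 with p16. Of the 4 tested, 0 were called with p21 by edgeR, DESeq2 or limma-voom, with 1 at an unadjusted p under 0.05. With the replicate number as a block, 1 was higher with p21. The block also called 1 higher in p21 against p16, where it called 11% of all genes higher. The summed level of 5 epithelial markers was 0.918 to 1.06, 1.47 to 2.09 and 1.22 to 1.53 CPM, and the 1 tested, Cldn4, was higher with p21 (0.95, edgeR adjusted p = 0.00971). Leukocytes express the NF-kB genes as well, and the part of these markers in the results below was not tested. In bulk RNA, fewer cells of a type and less RNA per cell cannot be told apart.

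Levels of different genes were compared as CPM per kilobase of the main annotated transcript. In the control libraries Rela, which encodes the main transactivating subunit p65, was highest at 31.3 ± 1.37 CPM per kb (SD, n = 3). Nfkb2, whose product p100 is processed to the subunit p52, stood at 24.2 ± 0.901 and Nfkbia, which encodes the inhibitor IkB-alpha, at 24.0 ± 1.58, and their libraries overlapped. Nfkb1, the gene of p105 and its product p50, followed at 18.2 ± 0.974 CPM per kb. Relb, the usual partner of p52, stood at 8.64 ± 0.232, Nfkbiz, which encodes the nuclear regulator IkB-zeta, at 7.74 ± 0.443, and Tnfaip3, which encodes the ubiquitin-editing brake A20, at 6.75 ± 0.329. Bcl3, a nuclear IkB-like protein that binds p50 and p52 pairs, stood at 4.60 ± 0.185 and Nfkbie, which encodes IkB-epsilon, at 2.72 ± 0.0959. Rel, the gene of c-Rel, which is used mostly by lymphoid cells, was lowest at 0.643 ± 0.0644 CPM per kb. No neighbours in this order other than Nfkb2 and Nfkbia overlapped between the control libraries. With p21 the level of Tnfaip3 was 9.98 ± 0.355 CPM per kb, above Relb (7.96 ± 0.579) and Nfkbiz (7.54 ± 0.375) in every library, where it had stood below both in the controls. With p16 it was 7.74 ± 0.223 CPM per kb, a range that overlapped those of both genes. The order depends on the length used, since over all annotated exons (12061 bases in place of 4117) Nfkb1 came to 6.23 CPM per kb in the controls, below Nfkbiz at 6.35. Over all exons the mean of Tnfaip3 with p21, 6.11 CPM per kb, also lay below that of Nfkbiz, 6.18, and stayed above that of Relb, 4.53.

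**Figure D2:**
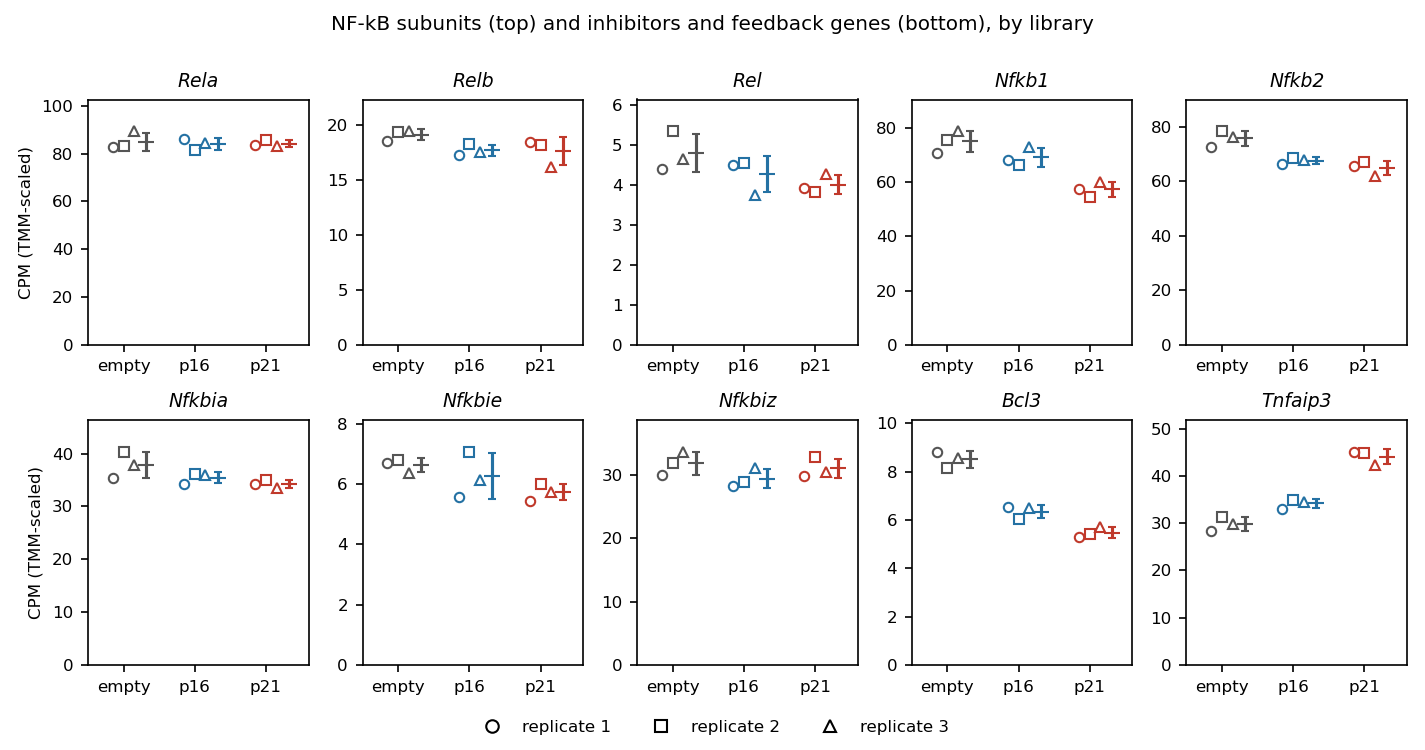
CPM of each of the 10 genes in every library (symbols by replicate number, colours by group) with the mean and SD of 3 libraries beside them, on axes that start at 0. Tnfaip3 was highest in the 3 p21 libraries, Bcl3 and Nfkb1 were lowest there, and Rela was level across the groups.

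The first comparison set the p21 libraries against those of the empty vector. Tnfaip3 rose, Nfkb1, Nfkb2, Bcl3 and Nfkbia fell, and the other 5 members did not pass the test. These 5 of 10 members stand beside a background in which 39.9% of the 14223 genes passed, 19.8% higher and 20.1% lower, so their number by itself says little about this group. With scaling to library totals and no TMM factors, 2173 genes were higher and 3734 lower in place of 2816 and 2865. The median log2 fold change of the 10 members was -0.18, against 0.0011 over all genes tested, and 9 of the 10 estimates lay below 0.

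Among the subunits, Rela was the least changed. Its libraries held 82.6, 83.0 and 89.3 CPM in the controls and 83.4, 85.7 and 83.1 CPM with p21, and the groups overlapped. The log2 fold change was -0.014 ± 0.043 (SE), with a 95% interval of -0.11 to 0.078 (edgeR adjusted p = 0.816). Nfkb1 stood at 70.9, 75.7 and 78.8 CPM in the controls and at 57.5, 54.6 and 60.2 CPM with p21. Every p21 library was below every control library, and the change of -0.39 ± 0.056 on the log2 scale, a change of -23.6%, passed the test (edgeR adjusted p = 1.58e-04). Nfkb1 lies on chromosome 3 (135584655 to 135691547 in GRCm38, minus strand). Nfkb2, on chromosome 19 (46304320 to 46312385, plus strand), went from 72.8, 78.4 and 76.5 CPM to 65.8, 67.1 and 61.9 CPM. These groups did not overlap either, and the log2 change was -0.22 ± 0.046 (edgeR adjusted p = 0.00194). Of the exon bases of Nfkb2, 18.1% are shared with genes annotated on the opposite strand. How the counting treated reads from these bases is not given in the sources used here. Relb and Rel had lower estimates that did not pass. Relb held 18.5, 19.4 and 19.4 CPM in the controls and 18.5, 18.2 and 16.1 CPM with p21, without overlap by a margin in the second decimal (-0.12 ± 0.062, edgeR adjusted p = 0.150). It passed with scaling to library totals and no TMM factors (edgeR adjusted p = 0.0468). Rel, counted 168 to 311 times per library, gave -0.26 ± 0.12 (edgeR adjusted p = 0.102), with an interval of -0.52 to -7.65e-04.

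The inhibitors and feedback genes went both ways. Tnfaip3, on chromosome 10 (19000910 to 19015657, minus strand), held 28.4, 31.4 and 29.8 CPM in the controls and 45.2, 44.9 and 42.3 CPM with p21. All p21 libraries were above all controls, and the level rose 1.48-fold (0.56 ± 0.048 on the log2 scale, edgeR adjusted p = 2.59e-06). Bcl3, on chromosome 7 (19808462 to 19822770, minus strand), held 8.83, 8.15 and 8.57 CPM in the controls against 5.29, 5.42 and 5.72 CPM with p21. This was the largest change among the 10 genes by estimate, at -0.64 ± 0.084 on the log2 scale (edgeR adjusted p = 8.35e-05), and the groups were far apart. An antisense gene shares 6.51% of its exon bases. Nfkbia, on chromosome 12 (55489410 to 55492647, minus strand), stood at 35.4, 40.4 and 37.9 CPM in the controls and at 34.2, 35.1 and 33.6 CPM with p21. The highest p21 library lay just under the lowest control, and the change was small, -0.14 ± 0.051 on the log2 scale (edgeR adjusted p = 0.0396). Its call was lost without control replicate 2 (log2 fold change -0.095, edgeR adjusted p = 0.176), control replicate 3 (0.0945), p21 replicate 1 (0.0877), p21 replicate 3 (0.110), p16 replicate 2 (0.0511) or p16 replicate 3 (0.0523). Nfkbie (-0.21 ± 0.10, edgeR adjusted p = 0.124) and Nfkbiz (-0.039 ± 0.057, edgeR adjusted p = 0.622) did not pass. Nfkbie held 6.37 to 6.81 CPM in the controls and 5.46 to 6.01 CPM with p21, and Nfkbiz 30.0 to 33.6 and 29.8 to 32.8 CPM. Groups were fully separated for 8 of the 10 genes, all but Rela and Nfkbiz, and for 49.1% of all genes tested.

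**Figure D3:**
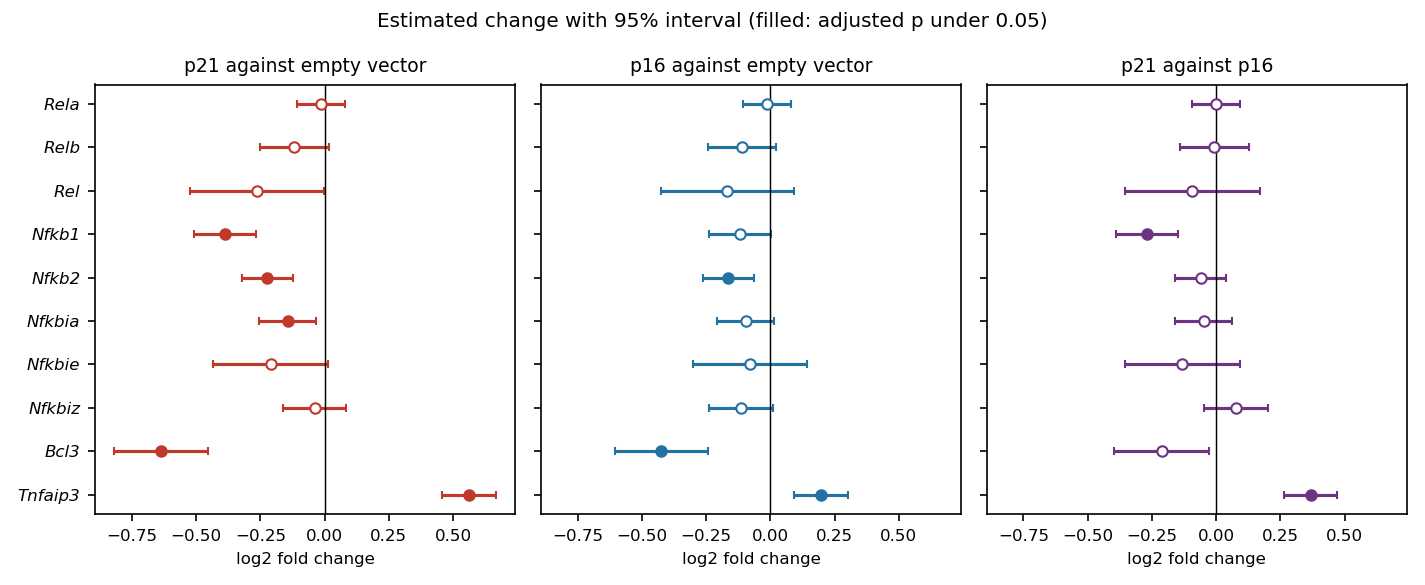
Log2 fold change of each gene with its 95% interval in the 3 comparisons, filled where the edgeR adjusted p was under 0.05. With p21, Nfkb1, Nfkb2, Nfkbia and Bcl3 are filled below 0 and Tnfaip3 above it, Bcl3 and Tnfaip3 stand farthest from 0 in both comparisons with the empty vector, and Nfkb1 and Tnfaip3 are the filled points in p21 against p16.

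With p16, in the comparison with the same control libraries, Tnfaip3 was higher and Bcl3 and Nfkb2 were lower. These were 3 of 10 members, where 11.4% of all genes passed, 5.8% higher and 5.56% lower (33.3% of the calls were higher when libraries were scaled by totals alone, in place of 51.1%). The members' median log2 fold change was -0.11, against 0.0017 over all genes. Bcl3 held 6.52, 6.04 and 6.48 CPM, below every control library, and changed by -0.42 ± 0.083 (edgeR adjusted p = 0.00715), a call that no alternative ended. Tnfaip3 held 33.1, 35.005 and 34.5 CPM, above every control library (0.20 ± 0.048, edgeR adjusted p = 0.0224). Nfkb2 held 66.5, 68.8 and 67.9 CPM, below every control library (-0.16 ± 0.046, edgeR adjusted p = 0.0368). Both of these calls rested on single libraries. That of Tnfaip3 was lost without control replicate 1 (edgeR adjusted p = 0.0936), control replicate 3 (0.0754), p16 replicate 2 (0.0927) or p16 replicate 3 (0.0758). That of Nfkb2 was lost without control replicate 2 (edgeR adjusted p = 0.129), control replicate 3 (0.0811), p16 replicate 1 (0.106), p16 replicate 2 (0.0827) or p16 replicate 3 (0.0843), so that without control replicate 3, p16 replicate 2 or p16 replicate 3 only 1 member, Bcl3, passed.

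Nfkb1 held 68.2, 66.3 and 73.1 CPM with p16, which overlapped the controls (-0.12 ± 0.055, edgeR adjusted p = 0.197), and it passed with the replicate number as a block (edgeR adjusted p = 0.0389). Nfkbia held 34.2, 36.1 and 35.9 CPM (-0.097 ± 0.051, edgeR adjusted p = 0.255) and Rela 86.3, 81.4 and 84.5 CPM (-0.015 ± 0.043, edgeR adjusted p = 0.873). For Relb, Rel, Nfkbie and Nfkbiz the estimates were -0.11, -0.17, -0.079 and -0.12 on the log2 scale, with edgeR adjusted p of 0.285, 0.409, 0.682 and 0.223. The libraries did not overlap for 4 of the 10 genes (Relb, Nfkb2, Bcl3 and Tnfaip3), where 32.7% of all genes did not.

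Whether p21 and p16 differed was tested directly between their libraries. Tnfaip3 stood 1.29-fold above its p16 level with p21 (log2 difference 0.37 ± 0.048, edgeR adjusted p = 3.74e-04), and Nfkb1 was lower (-0.27 ± 0.056, edgeR adjusted p = 0.00748). These 2 of 10 members stand beside 13.1% of all genes (6.15% higher and 6.91% lower, and 37% of calls higher with totals alone in place of 47.1%), and both passed in all 18 alternatives. The lowest p21 library of Tnfaip3, at 42.3 CPM, lay above the highest p16 library, at 35.005 CPM, and the highest p21 library of Nfkb1, at 60.2 CPM, lay below the lowest p16 library, at 66.3 CPM. Bcl3 also did not overlap, with p21 below p16, but missed the threshold (-0.21 ± 0.085, edgeR adjusted p = 0.125, interval -0.40 to -0.027). Such separation held for 3 of the 10 genes, against 31.2% of all genes tested. The other 7 members did not pass, with intervals from -0.093 to 0.093 for Rela, -0.16 to 0.040 for Nfkb2 and -0.16 to 0.063 for Nfkbia.

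Within each library the make-up of the 5 subunit transcripts was computed from the CPM per kb. Rela made up 37.7% ± 0.912 (SD, n = 3) of the sum in the controls and 41.8% ± 0.503 with p21, and 39.7% ± 0.917 with p16. Nfkb1 made up 21.98% ± 0.378 in the controls, 18.8% ± 1.19 with p21 and 21.6% ± 0.825 with p16. The p21 libraries lay outside the range of the controls for both genes, and the p16 libraries, at 39.0% to 40.8%, did so for Rela (36.7% to 38.3% in the controls). Nfkb2 made up 29.1% ± 0.767, 27.9% ± 0.752 and 27.7% ± 0.717 in the controls, with p21 and with p16, Relb between 10.03% and 11.2% in every library and Rel between 0.636% and 0.857%. The ratio of Rela to Nfkb1, which needs no scaling between libraries, was 1.66 to 1.77 in the controls, 2.09 to 2.38 with p21 and 1.75 to 1.92 with p16. Among the brakes, the ratio of Tnfaip3 to Nfkbia was 0.277 to 0.287 in the controls, 0.450 to 0.472 with p21 and 0.343 to 0.346 with p16, with no overlap between any groups. The ratio of Tnfaip3 to Bcl3 was 1.35 to 1.61 in the controls and 3.10 to 3.57 with p21. That of Relb to Nfkb2 was 0.352 to 0.361 and 0.370 to 0.399. The ratio of Nfkb2 to Nfkb1 overlapped, at 1.27 to 1.36 in the controls and 1.35 to 1.61 with p21. Tnfaip3 rose while Nfkbia and Bcl3 fell with p21, so the ratios of these genes restate the values by gene. The shares restate them too. Rela itself was level (-0.014 with p21 and -0.015 with p16 on the log2 scale), and its larger share follows from lower values of the other subunits. An exact permutation test of 3 libraries against 3 cannot give a two-sided p below 0.1, so these ratios are given without a test.

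**Figure D4:**
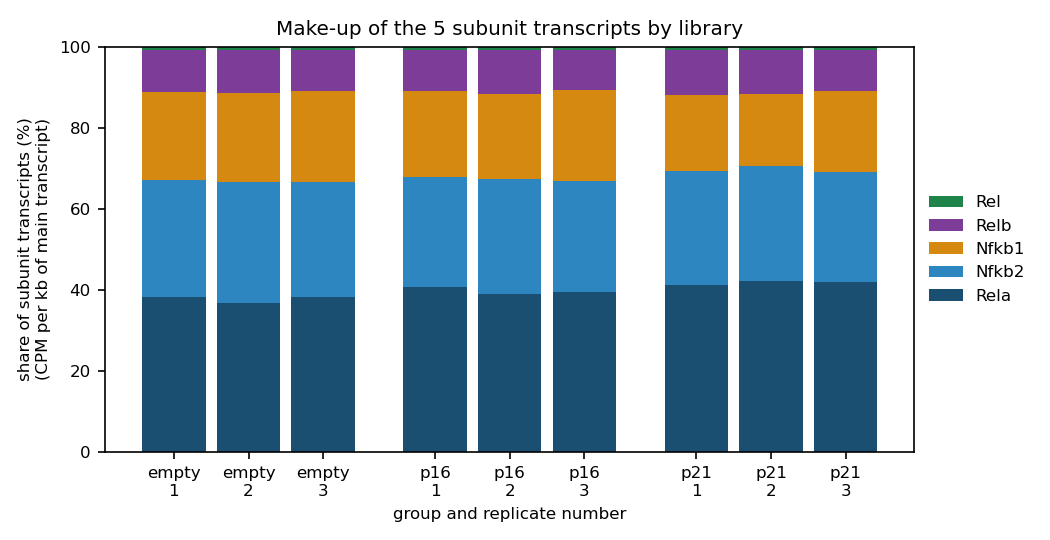
Share of each subunit transcript in the sum of the 5, in percent of CPM per kb of the main transcript, 1 bar per library. Rela takes the largest share in every library and Nfkb1 a smaller share in the p21 libraries (17.7% to 20.1%) than in the controls (21.6% to 22.3%).

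Of 111 other genes of the pathway, in 7 lists by role, 98 were tested. With p21, 31 were higher and 8 lower with a median log2 fold change of 0.055, beside 19.8% higher and 20.1% lower over all genes. The 39 called of 98 stand near the 39.9% of all genes in total, but not by direction. With p16, 9 were higher and 2 lower with a median of 0.024, beside 5.8% higher and 5.56% lower over all genes (11.4% in all). In p21 against p16, 11 differed, all higher with p21, beside 6.15% of all genes higher and 6.91% lower (13.1% in all). With the replicate number as a block the counts were 39 and 10, 16 and 6, and 19 and 2, beside 48.2%, 21.4% and 22.6% of all genes called. By direction the block called 24% of all genes higher and 24.2% lower, 11.3% and 10.1%, and 11% and 11.6%. In each comparison more of the listed genes were higher than lower, whereas over all genes the calls were split nearly evenly. The lists were chosen with earlier results of these data known, and none was tested as a set. The other IkB genes Nfkbib, Nfkbid and Nfkbil1 gave 0 calls in the 3 comparisons by edgeR, 0 with an unadjusted p under 0.05 and 0 by DESeq2 and limma-voom. Of the 13 kinases and their partners, 4 were higher and 0 lower with p21, beside 19.8% and 20.1% of all genes. Ikbkg, which encodes NEMO, the regulatory subunit of the IKK complex, rose from 45.2 ± 0.467 to 63.1 ± 1.43 CPM (0.48 ± 0.042, edgeR adjusted p = 3.22e-06), and 5.15% of its exon bases are shared with G6pdx on the opposite strand. Chuk, the IKK-alpha subunit, changed by 0.19 ± 0.047 and Tank, a scaffold of the IKK-related kinases, by 0.22 ± 0.044. The fourth, Ikbke, named after its values were seen, changed by 0.21 ± 0.071, a call that ended without control replicate 1 or 2 or p21 replicate 2 or 3 (edgeR adjusted p up to 0.115). Ikbkb, the IKK-beta subunit, gave 0.050 ± 0.043 (edgeR adjusted p = 0.382), a value also named after it was seen. With p16, Ikbkg was the 1 of these 13 to pass (0.24 ± 0.042, edgeR adjusted p = 0.00431), and it was higher with p21 than with p16 (0.24 ± 0.042, edgeR adjusted p = 0.00274).

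Of 21 adaptors and ubiquitin ligases, 5 were higher and 3 lower with p21, beside 19.8% and 20.1% of all genes. Irak2, a kinase of interleukin 1 and Toll-like receptor signalling, rose from 30.4 to 41.5 CPM (0.45 ± 0.047, edgeR adjusted p = 1.33e-05), and rose with p16 as well (0.27 ± 0.047, edgeR adjusted p = 0.00382). Ticam1, the adaptor TRIF, changed by 0.31 ± 0.052 with p21 and the adaptor Tirap by -0.17 ± 0.046, the latter a call lost without control replicate 1 (edgeR adjusted p = 0.0515). The others, named after their values were seen, were Ripk1 (0.13), Tradd (0.25) and Irak4 (0.23), all higher, and Traf1 (-0.59) and Traf2 (-0.17), both lower. Leaving out 1 library ended the calls of Tradd (without p21 replicate 1, edgeR adjusted p = 0.0783), of Irak4 (without control replicate 2 or p21 replicate 1, highest 0.101) and of Ripk1 and Traf2 (each without control replicate 2 or 3, p21 replicate 1 or 3, or any p16 replicate, at most 0.193 and 0.161). Of 15 partners of A20, deubiquitinases and other brakes, 6 were higher and 2 lower with p21, beside the same shares of all genes. Pdlim2, a ubiquitin ligase for nuclear p65, rose from 15.9 to 25.8 CPM (0.70 ± 0.069, edgeR adjusted p = 8.44e-06) and stood at 21.1 CPM with p16 (0.41 ± 0.069, edgeR adjusted p = 0.00333). Rnf11, a member of the A20 complex, changed by 0.27 ± 0.049 and Zfp36, which encodes the mRNA-destabilising protein tristetraprolin, by 0.39 ± 0.075 with p21. The lower ones, named after their values were seen, were Commd1 (-0.16, with an edgeR adjusted p of up to 0.0625 without control replicate 2 or p21 replicate 1 or 2) and Socs1 (-0.40, an edgeR adjusted p of up to 0.181 when control replicate 2 or 3, p21 replicate 1 or 2, or p16 replicate 1 or 2 was left out).

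Receptors went both ways: of 14 tested, 4 were higher and 2 lower with p21, beside 19.8% and 20.1% of all genes. Il1r1, the signalling receptor of interleukin 1, fell from 54.8 CPM in the controls to 39.5 with p21 (-0.47 ± 0.064, edgeR adjusted p = 9.71e-05) and 44.7 with p16 (-0.29 ± 0.063, edgeR adjusted p = 0.0121, lost without p16 replicate 2 at 0.0584). Il1rl1, the receptor of interleukin 33, fell from 447 CPM to 205 with p21 (-1.12 ± 0.18) and 255 with p16 (-0.81 ± 0.18, a call lost without control replicate 1 at an edgeR adjusted p of 0.0657). Cd40, a TNF-family receptor, rose from 0.950 CPM to 2.09 with p21 (1.14 ± 0.19) and 1.75 with p16 (0.88 ± 0.19, lost without control replicate 1 at an edgeR adjusted p of 0.0557). The Toll-like receptor genes Tlr3 (0.45), Tlr4 (0.42) and Tlr6 (0.72), named after their values were seen, were also higher with p21, and the call of Tlr3 needed control replicate 2 and p21 replicate 3 (edgeR adjusted p up to 0.0697 without 1 of them) and that of Tlr4 needed control replicate 3, p21 replicates 1 and 2 and p16 replicate 2 (up to 0.127). Cd40 and Toll-like receptors are also leukocyte genes, and 5 leukocyte markers were higher with p21 as given above, and their part in these values was not tested. Of 13 ligands 6 could be tested, and Tnf and Il1b were counted at most 10 and 2 times per library. Tnfsf15, a ligand of the TNF family, stood at 2.07 CPM in the controls, 8.16 CPM with p21 (1.98 ± 0.15, edgeR adjusted p = 1.12e-06) and 3.95 CPM with p16 (0.93 ± 0.16, edgeR adjusted p = 0.00329). Il1a held 0.126, 0.0515 and 0 CPM in the controls and 0.303, 0.363 and 0.285 CPM with p21. It passed the test (edgeR adjusted p = 0.00739), but its size is poorly fixed at these counts, with a log2 fold change of 2.31 ± 0.58 that was 3.38 without control replicate 1 and 1.81 without control replicate 3.

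Of 26 tested genes that NF-kB is known to induce, 10 were higher and 1 lower with p21, beside 19.8% and 20.1% of all genes, with a median log2 fold change of 0.20. Csf1, the macrophage growth factor, rose from 742 ± 77.5 to 1338 ± 199 CPM (0.85 ± 0.11, edgeR adjusted p = 7.51e-05), Ier3, an early response gene, from 74.2 to 103 CPM (0.47 ± 0.044) and Tnfaip2 from 68.9 to 88.2 CPM (0.36 ± 0.043). The lower one was Irf1 (-0.39), itself a transcription factor and named after its values were seen, which did not pass without control replicate 3 or p21 replicate 1 or 2 (edgeR adjusted p up to 0.0728). Mmp13 (1.32) was also higher with p21. So were, named after their values were seen, Ccl20 (1.13), Icam1 (1.03), C3 (0.87), Ptgs2 (0.55), Bcl2l1 (0.23) and Sod2 (0.13). The calls of Ccl20, C3, Ptgs2, Bcl2l1 and Sod2 were not rechecked with single libraries left out. Another 15 targets did not pass with p21, among them 4 named after their values were seen: Il6 0.11 ± 0.23, Ccl2 0.11 ± 0.059, Cxcl1 -0.0073 ± 0.37 and Vcam1 -0.0076 ± 0.075 (lowest of these 4, for Ccl2, edgeR adjusted p = 0.170). The errors of Il6 and Cxcl1 leave room for changes in either direction. With p16, 4 targets were higher and 0 lower, beside 5.8% and 5.56% of all genes. Ier3 changed by 0.22 ± 0.044 (edgeR adjusted p = 0.00829) and Mmp13, a collagenase gene, by 0.74 ± 0.18 (edgeR adjusted p = 0.0188, but up to 0.0785 without control replicate 2 or p16 replicate 1 or 2). Csf1 gave 0.43 ± 0.11, a call that ended without any 1 control replicate or p16 replicate 1 or 2 (edgeR adjusted p up to 0.101), and Tnfaip2 0.15 ± 0.043, which did not pass without any 1 control or p16 replicate or p21 replicate 1 (edgeR adjusted p up to 0.163). Between p21 and p16, 5 targets differed, all higher with p21, beside 6.15% of all genes higher and 6.91% lower. They were Ier3 (0.25), Tnfaip2 (0.21), Csf1 (0.42), Mmp13 (0.58) and the adhesion molecule gene Icam1, named after its values were seen. Icam1 held 5.96, 5.27 and 4.02 CPM in the controls and 5.44, 5.26 and 4.75 CPM with p16, but 12.3, 9.69 and 9.17 CPM with p21 (1.01 ± 0.14 against p16, edgeR adjusted p = 7.53e-04). Endothelial cells also express Icam1, and the part of the endothelial and leukocyte markers in its values was not tested. The difference in Csf1 did not pass without p21 replicate 1 or 2 or p16 replicate 2 or 3 (edgeR adjusted p up to 0.108) and that in Mmp13 without p21 replicate 1 or 3 or any p16 replicate (highest 0.160). With the replicate number as a block the counts of targets were 15 higher and 2 lower with p21, 7 and 2 with p16, and 10 and 0 in p21 against p16. The block called 24% of all genes higher and 24.2% lower with p21, 11.3% and 10.1% with p16, and 11% and 11.6% in p21 against p16.

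**Figure D5:**
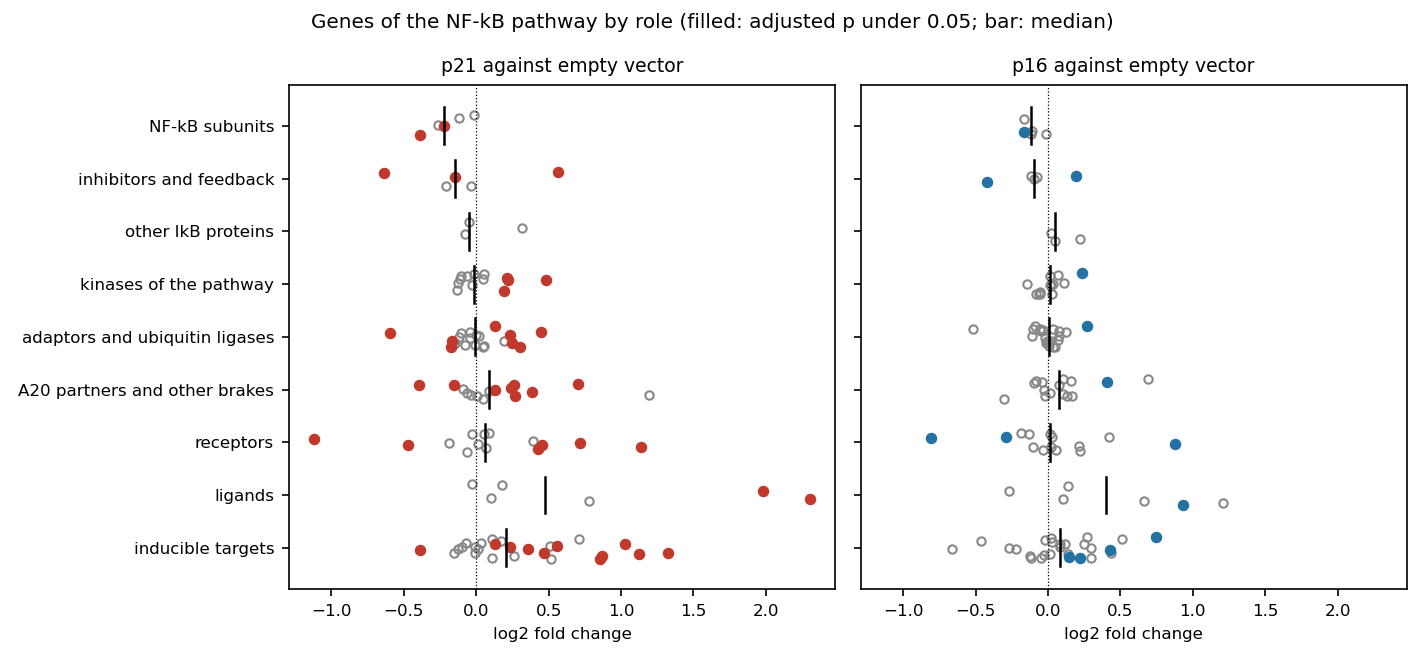
Log2 fold change of every tested gene by role in the pathway, with p21 (left) and p16 (right) against the empty vector, filled where the edgeR adjusted p was under 0.05, with a bar at each list's median. The inducible targets spread to the right with p21, where 10 of 26 were higher, while the subunits lie at or left of 0.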

How the data were processed

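The authors deposited raw counts per gene symbol for 9 libraries, made with a kit that keeps no strand. The submitters' processing notes name mm10, TopHat2 (2.0.14), Bowtie2 (2.2.6) and, for counting, featureCounts (1.4.6) from Subread. Which annotation and strand option were used is not given in the sources used here. The members and lists were chosen with earlier results of these data known.

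The model was edgeR's (4.0.16, under R 4.3.3): filterByExpr by group (minimum count 10, minimum total 15), TMM scaling, 1 quasi-likelihood fit of all libraries by group (6 residual degrees of freedom), two-sided F tests and Benjamini-Hochberg adjustment over 14223 genes at 0.05. A standard error is the size of a log2 fold change divided by the root of its F. The script was tested on simulated data. Named pathway genes are, per list, up to 3 past the test with the smallest adjusted p with p21 and up to 2 with p16. Others are marked as named after their values were seen.

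Coordinates and lengths come from GENCODE M21 (GRCm38), which held 22750 of the 24062 symbols. The length is that of the longest transcript of the best APPRIS principal class. Promoters come from RefSeq.

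After removal of group means, r across genes was 0.126 to 0.361 for the 9 pairs of libraries that share a replicate number and -0.246 to 0.106 for the other 18, so the numbers pair the samples. Alternatives were DESeq2 size factors, library totals, no filter, the delivered genes left out, DESeq2 1.42.0, limma-voom (limma 3.58.1), 2 groups only, the replicate block, replicates 1 and 2 only, and each library left out. Figures were drawn with Python 3.11.15 and matplotlib 3.10.9.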

Additional observations from a re-analysis of the deposited data

How the results depend on the processing

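The counts of members past the test were 4 to 5 with p21, 1 to 3 with p16 and 2 to 2 in p21 against p16 when each library was left out in turn. With p16 the count was 1 with replicates 1 and 2 only, where Bcl3 was left. The replicate block left 5 members with p21 and 2 in p21 against p16, and gave 4 with p16, where it added Nfkb1 (log2 fold change -0.12). It ended no other call of a member and added none. Over all genes it moved the count from 1616 to 3044 with p16 and from 1858 to 3214 in p21 against p16. Of the 180 values of the members under alternatives, 167 with p21, 165 with p16 and 172 in p21 against p16 kept their direction and their side of the threshold. The signs that turned all belonged to values that passed under no alternative: Rela with p21 (0.030 with replicates 1 and 2 only, -0.034 to 0.022 as libraries were left out, the last without control replicate 3), Rela with p16 (0.018 with replicates 1 and 2 only, -0.036 to 0.020 as libraries were left out, above 0 without control replicate 3 and, at 0.0076, without p16 replicate 2), Rela in p21 against p16 (-0.018 with library totals, -0.0013 without the filter, -0.0023 with only 2 groups, -0.023 to 0.021 as libraries were left out, below 0 without p16 replicate 2 and, at -0.014, without p21 replicate 2), Nfkbiz with p21 (0.012 with replicates 1 and 2 only, -0.080 to 0.00087 as libraries were left out, above 0 without control replicate 3) and Relb in p21 against p16 (0.043 with replicates 1 and 2 only, -0.046 to 0.051 as libraries were left out, above 0 without p21 replicate 3 and, at 0.016, without p16 replicate 2). The calls of Tnfaip3, Nfkb1, Nfkb2 and Bcl3 with p21 held in all 18 alternatives. That of Nfkbia also missed the threshold with only 2 groups fitted (edgeR adjusted p = 0.0606) and with replicates 1 and 2 only (0.132), over a range of 0.00976 to 0.176. With replicates 1 and 2 only, Tnfaip3 (0.0645) and Nfkb2 (0.0527) missed it with p16. Depth limits Rel, Nfkbie and Bcl3, where counting error alone was up to 7.72%, 6.14% and 6.47% of a library's count.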

Other observations

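The genes whose profile over the 9 libraries was most like that of Nfkbia, by the root mean square difference of log2 CPM centred on each gene's mean, were Zbtb6 (0.0299), Srebf1 (0.0325), a regulator of lipid synthesis, and Zfp212 (0.0333). Among the other members Nfkb2 was closest to Nfkbia (0.0454), then Relb (0.0552), and Tnfaip3 was farthest (0.290). The SD of the profile itself ran from 0.0403 log2 units for Rela to 0.284 for Bcl3, and was 0.0829 for Nfkbia. Rela, the flattest member, differed from Nfkbia by 0.0834. A small difference can thus come from small changes in both genes and does not show shared regulation. Zbtb6 and Zfp212 did not pass the test with p21 (-0.13 and -0.17, edgeR adjusted p = 0.141 and 0.0660), and Srebf1 did (-0.15, edgeR adjusted p = 0.0204), although without control replicate 2 or p21 replicate 1 it did not (0.0888 at most).

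In the start windows of the members, the Rel promoter also held a match, a stretch of both motifs that began at position -92 on the other strand. The windows of both later starts of Nfkb2 held 1 match, which is the same site, at position 11 from the second start and -225 from the third, and the second start of Tnfaip3 held none.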
